A study of Mus musculus with 10 samples.

Results

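The 8 genes described here encode subunits of the transcription factor AP-1. Fos, Fosb, Fosl1 and Fosl2 form the Fos family, Jun, Junb and Jund the Jun family, and Batf3 is a related partner of Jun proteins. Their accessibility was measured as the open chromatin peaks in the body of each gene or within 10 kb of it, on the GRCm38 mouse genome with its GENCODE annotation. The rule gave 43 of the 97385 peaks in the table, with 7 peaks each at Fos and Fosb, 4 at Fosl1, 5 at Fosl2, 4 at Jun, 8 at Junb, 4 at Jund and 4 at Batf3. Peaks are numbered along the chromosome within each gene, and all 43 passed the filter on low counts. The study profiled regulatory T cells (Tregs) by ATAC-seq, in which the Tn5 transposase cuts open chromatin, in mice that were 10 days old. Tregs had been sorted as CD4+Foxp3-YFP+TCRb+ cells. Control Tregs gave 2 spleen and 2 lung libraries. Vps34-deficient Tregs gave 4 spleen and 2 lung libraries. Vps34, the product of Pik3c3, is a kinase that phosphorylates membrane lipids. All mice carried a Cre recombinase with YFP under Foxp3, so that deletion was limited to cells that had expressed Foxp3. Vps34-deficient mice were Pik3c3 fl/fl, and the control groups were mice with Pik3c3 +/+ or +/fl.

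AP-1 is a dimer of a Fos and a Jun protein, or of Jun proteins alone, held together by a leucine zipper, and it binds a short palindromic DNA site. T cell receptor signals induce Fos, Fosb, Jun and Junb within minutes through MAP kinases and serum response factor, while Fosl1 and Fosl2 are known as slower members that lack the strong activation domain of Fos. In T cells, BATF proteins pair with Jun proteins and bind beside IRF4, and in effector Tregs and Tregs of non-lymphoid tissues AP-1 sites are known to lie in open chromatin.

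Library totals ran from 9405823 to 22439699 counts, and 0.109% to 0.130% of the counts of a library lay in the 43 peaks. Lung control replicates 1 and 2 differed more than any other pair of replicates, and the summed value of 7 of the 8 genes was 1.15 to 1.39 times higher in replicate 2. The exception was Jun, at 0.921 times. All 6 Treg and T cell markers had a peak within 1 kb of their start, with Foxp3 at 58.7 to 82.1 CPM, the count in a peak as a share of the library total, scaled to the same depth in every library. Markers of other cell types also had such peaks, at 3 of 6 for B cells (Ebf1 with a median of 16.5 CPM), 3 of 6 for myeloid cells (Spi1 12.2), 2 of 5 for lung epithelium (Epcam 21.8 and Cdh1 7.04), 2 of 5 for endothelium (Pecam1 26.4 and Kdr 5.14) and 3 of 5 for CD8 and NK cells (Eomes 18.7), and none was found at Lyz2, Sftpc, Cdh5 or Ncr1. The summed level of the epithelial list was 23.2 to 29.2 CPM in the 4 lung libraries and 27.4 to 34.7 CPM in the 6 spleen libraries, and that of the endothelial list was 27.0 to 36.2 and 29.9 to 35.8 CPM. By genotype, the epithelial list was lower in spleen Vps34-deficient (27.4 to 31.3) than in spleen control libraries (33.2 to 34.7). The B cell list had 16.9 to 23.4 CPM in spleen control and 20.2 to 23.6 in spleen Vps34-deficient libraries, and in lung 22.3 to 24.8 and 21.3 to 21.4. The CD8 and NK cell list had 28.1 to 32.5 and 26.0 to 37.5 CPM in spleen, and in lung it was lower in control (23.1 to 27.6) than in Vps34-deficient libraries (32.8 to 34.3). Lung tissue was digested with collagenase before sorting and spleen was not, so tissue and digestion cannot be told apart. In these bulk libraries, a change within each Treg cannot be told apart from a change in the mix of Treg states. The sum of all peaks at Pik3c3 was 66.9 to 83.2 CPM over all libraries and did not pass the test for genotype in either tissue, which does not check the deletion, since the deleted exons were not measured apart.

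The start peaks of Fos, Fosb, Jun and Jund and a peak upstream of Junb hold sites by which AP-1 genes are known to be induced, and these sequences are shown with the site in capitals. The start peaks of Junb and Batf3 hold none of the 4 motifs searched. All are from GRCm38, 5′ to 3′ on the strand of the gene. The Fos stretch ends 30 bases before the start of the gene (chr12:85473561-85473860, plus strand) and lies in Fos peak 4. Its capitals mark a CArG box, the site of serum response factor.
Fos: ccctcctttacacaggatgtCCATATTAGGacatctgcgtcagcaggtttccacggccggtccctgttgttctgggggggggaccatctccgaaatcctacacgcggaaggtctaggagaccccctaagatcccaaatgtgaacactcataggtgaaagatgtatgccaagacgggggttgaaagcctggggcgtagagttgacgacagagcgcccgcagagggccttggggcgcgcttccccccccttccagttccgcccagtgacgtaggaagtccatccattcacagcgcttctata
A CArG box also lay before the start of Fosb, in its start peak (chr7:19310288-19310337, minus strand), and in Junb peak 6, upstream of Junb (chr8:84980139-84980188, minus strand).
Fosb: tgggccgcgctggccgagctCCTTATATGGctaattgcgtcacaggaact
Junb: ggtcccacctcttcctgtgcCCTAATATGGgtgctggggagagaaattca
The start peak of Jun (chr4:95052240-95052287, minus strand) held TGACATCA, a variant of the AP-1 site known from this promoter, and that of Jund (chr8:70698715-70698762, plus strand) held TGACGTCA, the full cAMP response element.
Jun: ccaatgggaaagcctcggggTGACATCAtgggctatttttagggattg
Jund: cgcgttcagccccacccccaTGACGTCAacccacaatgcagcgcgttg

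The letters TGANTCA (the AP-1 site, N being any base), TGACGTCA, TGACATCA and the CArG box were searched on both strands, and each stretch shown holds only the matches in capitals. A match is a description of the sequence and says nothing of binding. In the 300 bp around the centre of a peak, the CArG box was found in 2 of the 43 member peaks (4.65%) and in 1.41% of all peaks. TGACATCA was found there in 1 of the 43 member peaks (2.33%) and in 2.34% of all peaks. TGACGTCA was found there in 0 of the 43 and in 0.849% of all peaks. The matches shown at Jun and Jund lie outside this central stretch. TGANTCA was found in 4 of the 43 member peaks (9.30%) and in 13.0% of all peaks. Among peaks over 1 kb from every coding start it was found in 4 of 26 member peaks (15.4%), beside 14.4% of all such peaks, and among peaks closer to a start in 0 of 17, beside 4.80%. Over the whole length of a peak, TGANTCA lay in Fosl2 peaks 1 and 2 and Batf3 peak 3, which were called. It also lay in Fos peak 4, Fosl1 peaks 1 and 2, Junb peaks 7 and 8 and Batf3 peak 4, which were not. In RefSeq promoters of 300 bases (GRCm38.p6, matched for 7 of the 8 genes), the Jun promoter held TGACATCA with its first base 45 bases before the start, and the other 6 member promoters held none of the 4 motifs. Over all 32851 RefSeq promoters, 3.62% held TGACATCA. RefSeq starts of Batf3, Fosl2 and Jund lie 567, 671 and 1210 bases from the GENCODE starts, which were used throughout.

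Member peaks had a higher median width and level than the table as a whole. Their median width was 521 bp, beside 327 bp for all peaks, and their median level over the 10 libraries was 11.6 CPM, beside 3.28 CPM. Of the 43, 17 (39.5%) lay within 1 kb of a coding start, beside 14.6% of all peaks. For 7 member peaks the nearest coding start was that of another gene, among them Fosl1 peaks 3 and 4, at Ccdc85b and Fibp, and Junb peaks 1 and 2, over exons of Rnaseh2a.

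Per length of the peak at the GENCODE start, that of Jun was the most open, at 176 ± 14.4 CPM per kb (SD, 10 libraries). Junb followed at 117 ± 15.2, Jund at 76.3 ± 10.4, Fos at 60.3 ± 6.27, Fosl2 at 51.8 ± 16.8 and Fosb at 48.3 ± 3.37 CPM per kb. The start of Fosl1 reached 15.3 ± 2.72 and that of Batf3 7.53 ± 1.87 CPM per kb. Every library had a higher value at Jun than any library had at Junb, and Fosb did not overlap with Fosl1, nor Fosl1 with Batf3. Junb and Jund overlapped, as did Jund and Fos, Fos and Fosl2, and Fosl2 and Fosb. Among all peaks that cover a coding start, the level of Jun was at the 98.1th percentile, that of Fos at the 72.4th, that of Fosl1 at the 23.5th and that of Batf3 at the 10.2th. With RefSeq starts the order changes, since that of Batf3 lies in peak 2, at 19.1 CPM per kb, above Fosl1, that of Fosl2 in peak 3, at 22.6 CPM per kb, below Fosb, and that of Jund in no peak. These levels rank accessibility, not expression.

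**Figure D1:**
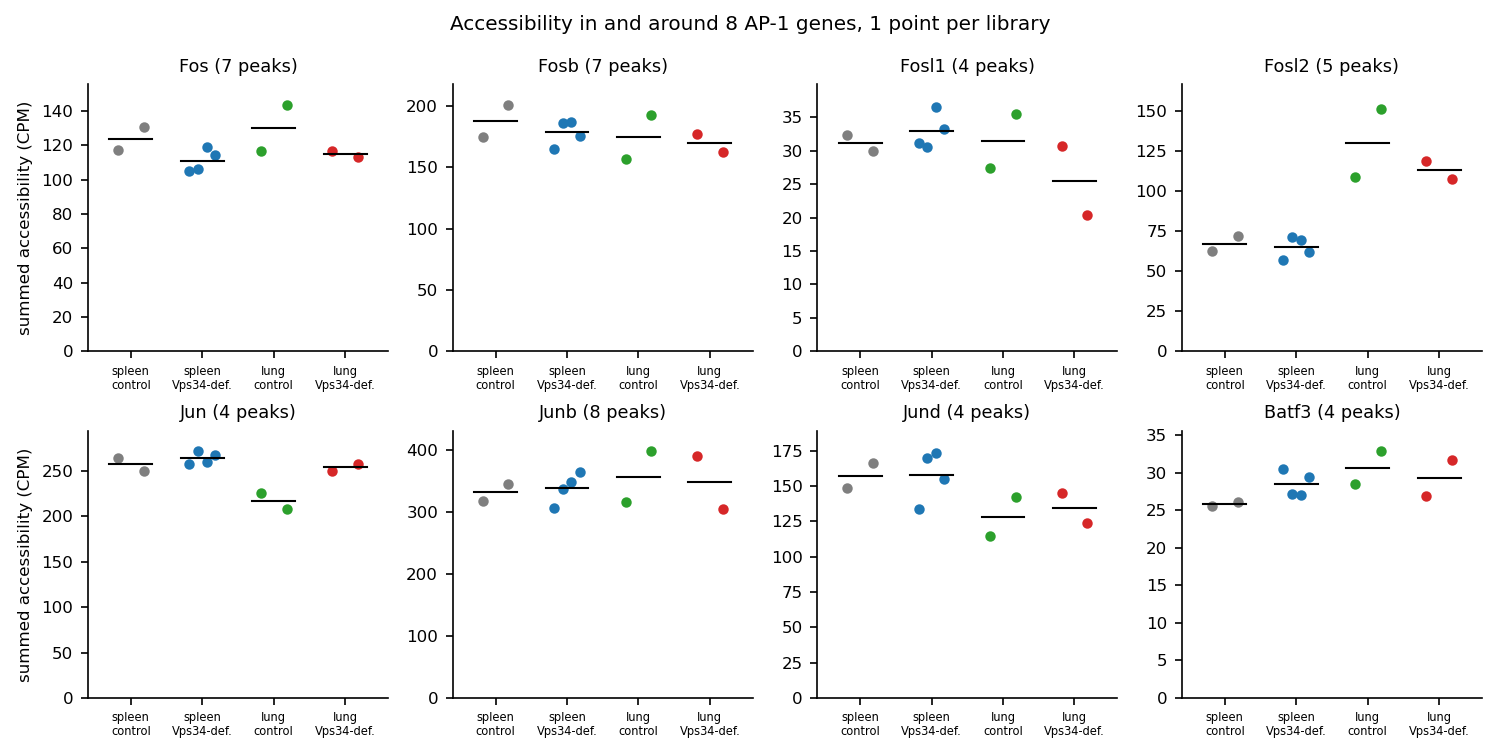
Summed accessibility of all peaks of each gene (y axis, CPM, from 0) in the 4 groups, with 1 point per library and a black line at the group mean. Fosl2 lies between 108 and 151 CPM in the 4 lung libraries and between 57.3 and 71.8 CPM in the 6 spleen libraries. For the other 7 genes the lung and spleen ranges overlap when both genotypes are pooled. Within the control libraries alone, lung also lies below spleen for Jun and Jund and above it for Batf3.

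Most calls at the AP-1 genes were for lung against spleen, as in the table as a whole, and 4 of the 6 calls in each genotype were at Fosl2. A peak was called where edgeR's quasi-likelihood test gave a Benjamini-Hochberg adjusted p below 0.05 over all peaks and the absolute log2 fold change was above 0.5. In control Tregs, 6 of the 43 member peaks (14.0%) were called higher in lung than in spleen, beside 11.8% of all peaks, and 0 were called lower, beside 3.53%. In Vps34-deficient Tregs, 6 were called higher in lung, beside 12.5%, and 0 lower, beside 4.72%. At an unadjusted p under 0.05, 4 members were lower in control, beside 9.46%, and 1 in Vps34-deficient Tregs, beside 12.4%, and DESeq2's Wald test called 0 lower in both. The shares of members called higher were thus near those of all peaks, and the counts include Fosl2 peaks 4 and 5, which passed the low count filter through the lung libraries. Lung and spleen values did not overlap, with lung higher, at 12 members in control, beside 28.6% of all peaks, and at 7 in Vps34-deficient Tregs, beside 20.7%. With lung lower, this held at 7 members in control (16.3%), beside 29.6% of all peaks, and at 7 in Vps34-deficient Tregs (16.3%), beside 21.6%. The members called in control were Fos peak 1, Fosl2 peaks 1, 2, 4 and 5 and Batf3 peak 1, and in Vps34-deficient Tregs Fos peaks 1 and 3 and the same peaks of Fosl2. Each comparison shares its libraries with the genotype comparisons.

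**Figure D2:**
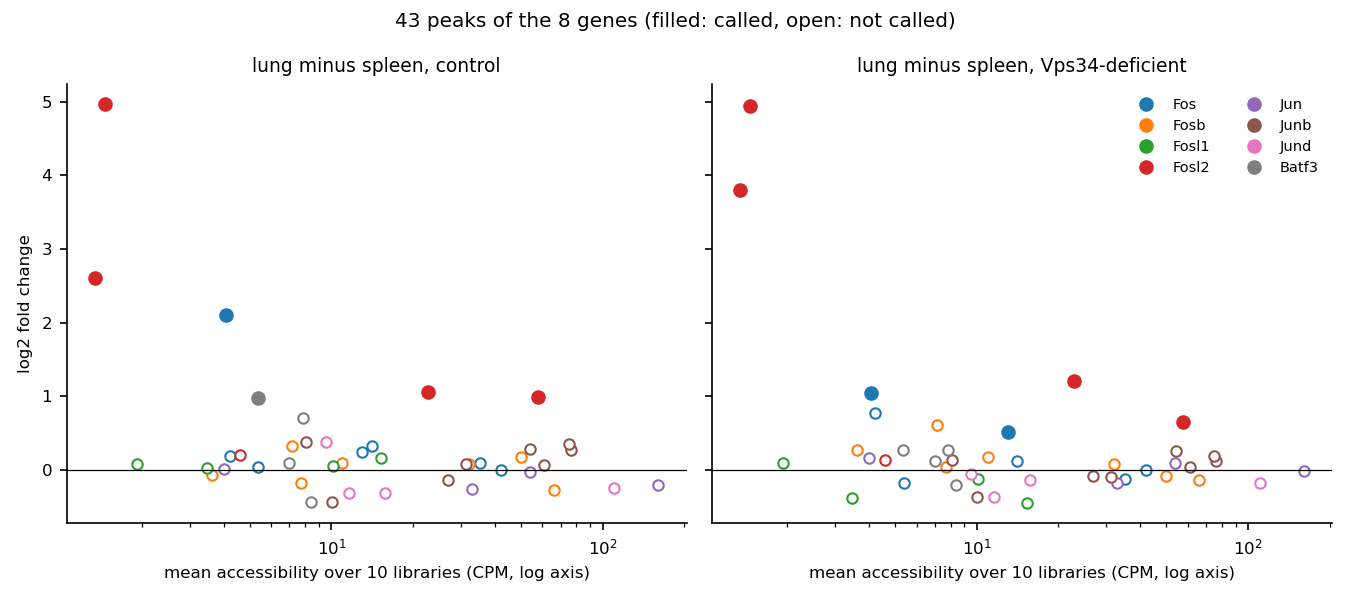
Log2 fold change of lung minus spleen (y axis) for the 43 peaks against their mean level over the 10 libraries (x axis, CPM, log axis), in control (left) and Vps34-deficient Tregs (right). Colours mark the genes, filled points are called, and the points with the greatest change, near 5 on the log2 scale, are Fosl2 peak 5.

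Loss of Vps34 was followed by few calls at these genes. In spleen, 1 of the 43 peaks was called higher in Vps34-deficient Tregs (Fos peak 1), beside 0.441% of all peaks, and 0 lower, beside 1.02%. In lung, 0 were called higher, beside 1.22%, and 1 lower (Batf3 peak 3), beside 3.74%. At an unadjusted p under 0.05, 3 were lower in spleen, beside 5.25%, and 1 was higher in lung, beside 8.77%, and DESeq2's Wald test called 0 in these directions. With both tissues averaged, 1 was called higher (Fos peak 1) and 1 lower (Batf3 peak 3), beside 4.45% and 4.97%. The median log2 fold change of the 43 peaks was 0.01 in spleen and -0.03 in lung, where all peaks had medians of 0.05 and 0.02. For genotype, edgeR called 0 of the 8 start peaks in either tissue. On the log2 scale they lay between -0.17 and 0.73 in spleen and between -0.34 and 0.22 in lung. An unadjusted p under 0.05 was reached by 1 in spleen (Batf3 peak 1) and by 2 in lung (Jun peak 3 and Fosl2 peak 2), and the smallest adjusted p was 0.0868, at Jun peak 3. Summed over the peaks of each gene, edgeR and DESeq2 called 0 of the 8 genes for genotype in spleen, in lung or averaged. Of all genes, 0.0397%, 0.550% and 1.60% were called higher in these comparisons and 0.136%, 1.42% and 1.06% lower. At an unadjusted p under 0.05, 0 of the 8 sums passed in spleen, beside 10.1% of all genes, 1 in lung, beside 20.3%, and 2 averaged, beside 24.4%.

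Whether the genotype effect differed between the tissues was tested as an interaction. edgeR called 0.00% of all peaks in both directions, and DESeq2 also called 0 member peaks. At an unadjusted p under 0.05, 2 member peaks passed (4.65%), beside 7.27% of all peaks. These were Fos peak 1 and Fosl1 peak 3, and the smallest adjusted p of a member was 0.602 by edgeR's quasi-likelihood test. Of the 8 sums, 0 were called by edgeR or DESeq2, and 1 (Jun) had an unadjusted p under 0.05, beside 6.02% of all genes.

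Fosl2 encodes Fra-2, a Fos protein that persists after the early Fos response has ended. Its 5 peaks summed to 62.8 and 71.8 CPM in the spleen control libraries, 57.3, 71.1, 69.2 and 61.9 in the spleen Vps34-deficient libraries, 109 and 151 in the lung control libraries and 119 and 108 in the lung Vps34-deficient libraries. All 4 lung libraries lay above all 6 spleen libraries. Within a genotype, lung lay wholly above spleen in 20.6% of all genes in control and 15.6% in Vps34-deficient Tregs. Lung was higher by 1.01 (SE 0.127) on the log2 scale in control and by 0.87 (SE 0.108) in Vps34-deficient Tregs, and edgeR's quasi-likelihood test over 17628 genes gave adjusted p of 0.000703 and 0.0003. Sums were called higher in lung for 7.16% and 8.27% of all genes, and Fosl2 was the 1 member called in each. The other 7 genes were not called lower either, beside 1.15% and 1.38% of all genes. At an unadjusted p under 0.05, 1 was lower in control, beside 13.5%, and 0 in Vps34-deficient Tregs, beside 15.7%. At the same thresholds the call was kept under all 23 alternative fits in both comparisons, with a log2 fold change of 0.78 to 1.20 in control and 0.82 to 0.95 in Vps34-deficient Tregs, where it would not pass an absolute log2 fold change above 1. Counts of alternatives given for single peaks likewise cover other fits at unchanged thresholds. Genotype did not pass the test for the sum (log2 fold change -0.03 with adjusted p 0.967 in spleen and -0.17 with adjusted p 0.466 in lung, edgeR).

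**Figure D3:**
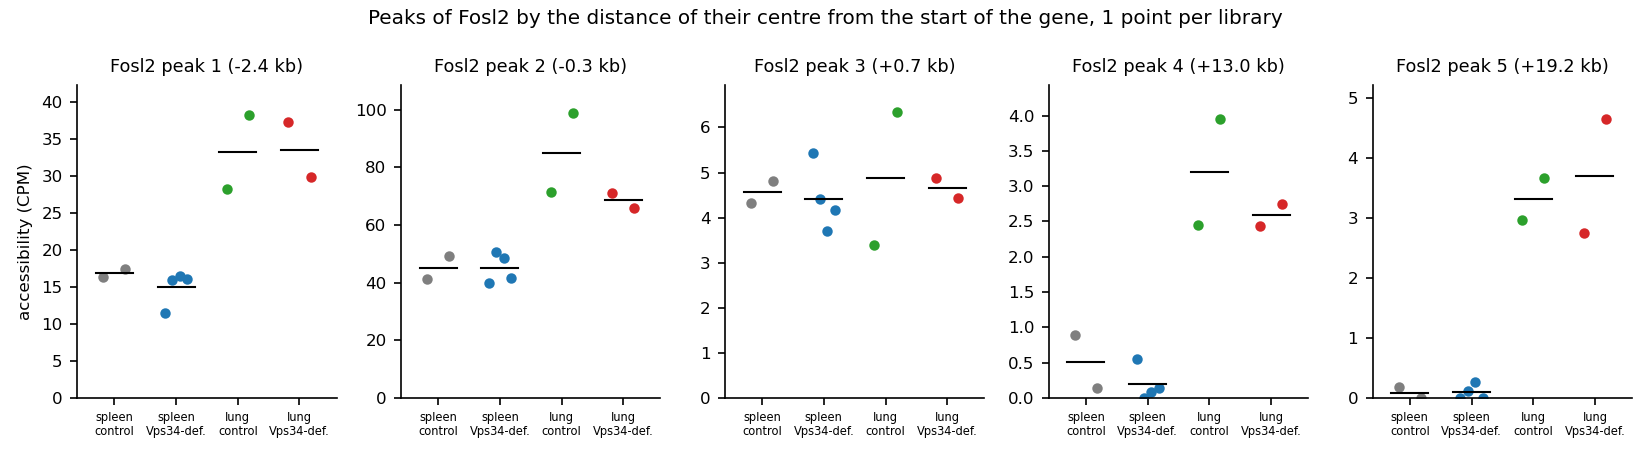
Accessibility (y axis, CPM, from 0) of the 5 peaks of Fosl2 in the 4 groups, with 1 point per library, a black line at the group mean and the distance of the peak's centre from the gene's start in each title. Peaks 1, 2, 4 and 5 are higher in every lung library than in any spleen library, and peak 3 is not.

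Lung was above spleen at 4 of the 5 peaks of Fosl2. Peak 2 covers the start (chr5:32134965-32136079, first untranslated exon) and had 41.1 and 49.3 CPM in spleen control, 39.8, 50.5, 48.7 and 41.5 in spleen Vps34-deficient, 71.4 and 98.6 in lung control and 71.1 and 65.8 in lung Vps34-deficient libraries. The lung values lay above the spleen values in both genotypes, by 0.99 (SE 0.142, adjusted p 8.91e-05, edgeR) and 0.65 (SE 0.121, adjusted p 0.000547) on the log2 scale. Peak 1, an intergenic peak 1896 bp upstream (chr5:32132870-32133905), had 16.3 and 17.5 CPM in spleen control, 11.5 to 16.5 in spleen Vps34-deficient, 28.3 and 38.3 in lung control and 37.4 and 29.8 in lung Vps34-deficient libraries. It rose with tissue by 1.06 (SE 0.182, adjusted p 0.000353, edgeR) in control and by 1.21 (SE 0.154, adjusted p 1.31e-05) in Vps34-deficient Tregs. Peak 1 holds an AP-1 site near its upstream edge, shown in capitals (chr5:32132883-32132929, plus strand).
Fosl2 peak 1: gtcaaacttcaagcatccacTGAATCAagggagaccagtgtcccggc
Between these peaks and the gene's inner peaks, peak 3 had 3.4 to 6.35 CPM over all libraries, with overlapping groups.

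The inner peaks of Fosl2 were nearly closed in spleen. Peak 4 lies in an intron, 12876 bp after the start (chr5:32148677-32148942), and held 20 and 2 counts in spleen control, 8, 0, 2 and 2 in spleen Vps34-deficient, 23 and 56 in lung control and 30 and 26 in lung Vps34-deficient libraries. Peak 5 lies in an untranslated exon, 19062 bp after the start, and held 4 and 0 counts in spleen control, 0, 2, 6 and 0 in spleen Vps34-deficient, 28 and 52 in lung control and 34 and 44 in lung Vps34-deficient libraries. In CPM, every lung library was above every spleen library at both peaks. As a ratio of fragments (counts halved, since most counts were even), lung control held 5.70 times the level of spleen control at peak 4, with a 95% counting interval of 2.87 to 12.3, and 31.3 times at peak 5 (8.13 to 268). In Vps34-deficient Tregs the ratios were 14.3 (5.82 to 42.3) and 29.9 (10.8 to 115). These intervals cover counting error only. Both peaks passed the low count filter through the lung libraries, where they are high, so a difference between the tissues was built into their tests, and their calls are given as a description only. The size of the difference rests on single libraries. At peak 4 in control the fitted log2 fold change was 2.61, and it was 4.44 without spleen control replicate 1. It was 1.87 without spleen control replicate 2 and 2.12 without lung control replicate 2, and both lost the call. At peak 5 in control it was 4.96, and 4.19 without spleen control replicate 2, while leaving out replicate 1 leaves spleen control at 0 counts, so that no fold is given. In Vps34-deficient Tregs, peak 4 went from 3.80 to 4.94 without spleen Vps34-deficient replicate 1, and peak 5 from 4.95 to 6.10 without replicate 3. Peak 4 is shown whole (chr5:32148677-32148942, plus strand), since it is the inner peak outside untranslated sequence, and it holds none of the 4 motifs.
Fosl2 peak 4: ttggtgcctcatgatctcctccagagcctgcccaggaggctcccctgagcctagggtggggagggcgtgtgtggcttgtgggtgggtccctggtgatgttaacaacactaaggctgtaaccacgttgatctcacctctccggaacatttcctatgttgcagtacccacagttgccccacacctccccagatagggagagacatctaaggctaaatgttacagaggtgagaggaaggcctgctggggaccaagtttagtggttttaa

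Fos, the first member of the family to be induced, was most open at its start. Its start peak (peak 4, chr12:85473405-85474104, which holds the CArG box shown) had 42.5 and 49.6 CPM in spleen control, 35.7, 42.2, 44.0 and 41.8 in spleen Vps34-deficient, 38.3 and 48.8 in lung control and 40.3 and 38.9 in lung Vps34-deficient libraries. The groups of each comparison overlapped, and the log2 fold change was -0.17 for genotype in both tissues and 0.00 for tissue in both genotypes. Its strongest distal peak (peak 7, 11860 bp after the start, also with a CArG box) had 30.7 to 41.8 CPM over all libraries and was not called in any comparison. The sum of its 7 peaks ran from 105 to 143 CPM and was not called either. For genotype averaged over both tissues the log2 fold change of the sum was -0.14 (SE 0.0587, adjusted p 0.141, edgeR).

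Fos peak 1 was called in both kinds of comparison. This intergenic peak of 210 bp, 5590 bp before the start, had 1.34 and 1.38 CPM in spleen control, 3.62, 3.18, 2.53 and 4.16 in spleen Vps34-deficient, 6.59 and 4.66 in lung control and 6.17 and 7.20 in lung Vps34-deficient libraries. Both spleen controls lay below the 4 Vps34-deficient libraries, a separation seen in 15.0% of all peaks. The genotypes overlapped in lung. The log2 fold change for genotype was 1.30 (SE 0.308, adjusted p 0.0299, edgeR) in spleen and 0.24 (SE 0.307, adjusted p 0.706) in lung, and 0.77 (adjusted p 0.0231) averaged. Lung was above spleen by 2.11 (SE 0.341, adjusted p 0.000216, edgeR) in control and by 1.05 (SE 0.263, adjusted p 0.00719) in Vps34-deficient Tregs.

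The spleen call at Fos peak 1 was kept in 15 of 21 alternatives, and the log2 fold change stayed between 1.19 and 1.39. It was lost with the replicate number as a block (adjusted p 0.133, edgeR), without spleen control replicate 1 or 2, and without spleen Vps34-deficient replicate 1, 2 or 4, with adjusted p of 0.0682 to 0.343. The averaged call was lost with the block and without either spleen control, lung control replicate 2 or lung Vps34-deficient replicate 2, at 0.65 to 0.80 on the log2 scale. The tissue call in control was kept in all 21 alternatives, and that in Vps34-deficient Tregs was lost with the block (1.01) and without lung Vps34-deficient replicate 2 (0.996). Narrow peaks moved in the same direction in the whole table. Of all peaks of up to 220 bp, 1.14% were called higher in spleen Vps34-deficient Tregs, and 34.4% and 41.8% were called higher in lung in control and Vps34-deficient Tregs. For peaks over 300 bp these shares were 0.262%, 5.30% and 3.52%, and for peaks over 220 and up to 300 bp, the class of Fosl2 peaks 4 and 5, 0.125%, 3.89% and 3.49%. Peak width is thus a measured quantity that goes with the change at Fos peak 1, and its part in the result was not tested. Of the 43 member peaks, 4 were of up to 220 bp. The peak is shown whole (chr12:85468091-85468300, plus strand), as the only member peak called for genotype in spleen, and holds none of the 4 motifs.
Fos peak 1: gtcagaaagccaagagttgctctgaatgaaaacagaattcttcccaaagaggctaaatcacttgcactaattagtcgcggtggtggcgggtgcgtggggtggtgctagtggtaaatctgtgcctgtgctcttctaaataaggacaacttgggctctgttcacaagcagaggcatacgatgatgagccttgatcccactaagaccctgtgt

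Fos peak 3, 1433 bp before the start, holds TGACATCA. It had 13.2 and 15.8 CPM in spleen control, 8.55, 9.05, 12.3 and 10.6 in spleen Vps34-deficient, 15.9 and 16.5 in lung control and 13.6 and 14.3 in lung Vps34-deficient libraries. In each tissue both controls lay above all Vps34-deficient libraries, a separation that was seen in 11.1% of all peaks in spleen and 22.0% in lung. The genotype effect did not pass the test (log2 fold change -0.51 with adjusted p 0.132 in spleen and -0.24 with adjusted p 0.534 in lung, edgeR). Lung was called higher in Vps34-deficient Tregs by 0.51 (SE 0.176, adjusted p 0.0437), a call that was kept in 9 of 21 alternatives. Among others it was lost without either lung Vps34-deficient library (0.60 and 0.54), without spleen Vps34-deficient replicate 1, 2 or 4 (0.39, 0.41 and 0.53), without spleen control replicate 1 or lung control replicate 2 (0.50 in both), with library size alone (0.46) and with halved counts (0.49).

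Fosb, induced with Fos, gave no call. Its start peak (peak 5, chr7:19309924-19310586, 28.8 to 34.8 CPM) and its strongest distal peak (peak 4, in an intron 1063 bp after the start, 49.4 to 79.0 CPM) were not called in any comparison. At peak 4, spleen control libraries had 67.8 and 79.0 CPM and lung control libraries 49.4 and 65.3. All lung libraries lay below all spleen libraries of the same genotype, a separation seen in 29.6% of all peaks in control and 21.6% in Vps34-deficient Tregs. The log2 fold change in control was -0.27 (SE 0.123, adjusted p 0.14, edgeR), and it was -0.59 with a call when lung control replicate 2 was left out. The sum of the 7 peaks at Fosb ran from 156 to 201 CPM and had fold changes between -0.06 and 0.05 on the log2 scale in the 6 contrasts.

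Fosl1, which encodes Fra-1, was the least open of the Fos family. Its start peak (peak 1, chr19:5447414-5448074) had 7.20 to 12.8 CPM over the 10 libraries, and its strongest distal peak (peak 2, in an intron) 0.847 to 2.62 CPM. Both hold TGANTCA, and neither was called in any comparison. Over its 4 peaks the sum was 27.4 and 35.5 CPM in lung control and 30.7 and 20.3 in lung Vps34-deficient libraries. In lung Vps34-deficient replicate 2 the sum was the lowest of all 10 libraries. The sum was not called, but without lung Vps34-deficient replicate 1 it was called lower in lung than in spleen of Vps34-deficient Tregs (log2 fold change -0.61, beside -0.29 with all libraries). Peaks 3 and 4 at Fosl1, which lie at Ccdc85b and Fibp, are part of that sum.

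**Figure D4:**
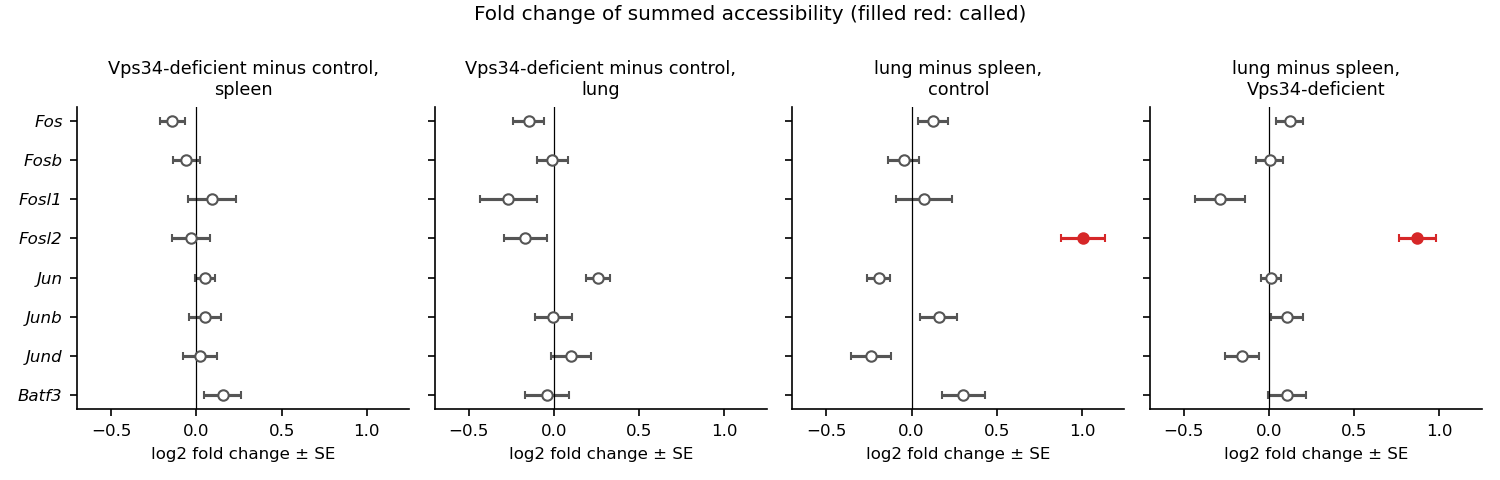
Log2 fold change with its SE (x axis) of the summed accessibility of each gene, for genotype in spleen and lung and for tissue in control and Vps34-deficient Tregs. Filled red points are called, which holds for Fosl2 in both tissue comparisons, at 1.01 and 0.87, and open points are not called.

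Jun encodes the most potent activator of its family and had the most open start. Its start peak (peak 3, chr4:95052052-95052962) had 167 and 165 CPM in spleen control, 167, 173, 166 and 170 in spleen Vps34-deficient, 140 and 134 in lung control and 159 and 166 in lung Vps34-deficient libraries. The lung control libraries were the lowest of the 10. The log2 fold change was 0.22 (SE 0.0743, adjusted p 0.0868, edgeR) for genotype in lung, 0.02 (SE 0.0635) in spleen and -0.20 (SE 0.0738, adjusted p 0.0602) for lung minus spleen in control.

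Summed over its 4 peaks, Jun showed the same order. The sum was 265 and 250.4 CPM in spleen control, 258, 272, 260.4 and 268 in spleen Vps34-deficient, 226 and 208 in lung control and 250.5 and 258 in lung Vps34-deficient libraries. Both lung Vps34-deficient libraries lay above both lung controls, a separation seen in 18.6% of all genes. The log2 fold change for genotype in lung was 0.26 (SE 0.0691, adjusted p 0.0527, edgeR), below the fold threshold. Averaged over both tissues it was 0.15 (SE 0.0454, adjusted p 0.05003), and the interaction was 0.21 (SE 0.0904, adjusted p 0.794). Leaving out lung control replicate 2 gave 0.18 in lung (adjusted p 0.347, edgeR), and leaving out replicate 1 gave 0.35 (adjusted p 0.0049). In lung the CD8 and NK cell markers were also higher, and the myeloid and B cell markers lower, in Vps34-deficient libraries, and their part in the result was not tested.

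Junb and Jund, the other Jun proteins, did not pass the test in any comparison. The start peak of Junb (peak 5, chr8:84978538-84979058) had 47.3 to 70.9 CPM over the 10 libraries, with these extremes in lung control replicates 1 and 2. Its strongest distal peak (peak 3, in the annotated intron) had 63.5 to 88.5 CPM, and peak 8, whose nearest start is that of Hook2, had 65.5 to 96.7 CPM. Jund is known for its expression in resting cells, and its start peak (peak 3, chr8:70698271-70699716) had 109.6 and 126 CPM in spleen control and 85.1 and 103 in lung control libraries. The lung controls lay below the spleen controls at this peak, with a log2 fold change of -0.24 (SE 0.116, adjusted p 0.167, edgeR). That separation was seen in 29.6% of all peaks. The sums ran from 305 to 398 CPM for Junb and from 114 to 174 CPM for Jund. Of the 8 peaks in the Junb sum, only 4 lay nearest its own start, whereas all 4 did at Jund.

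**Figure D5:**
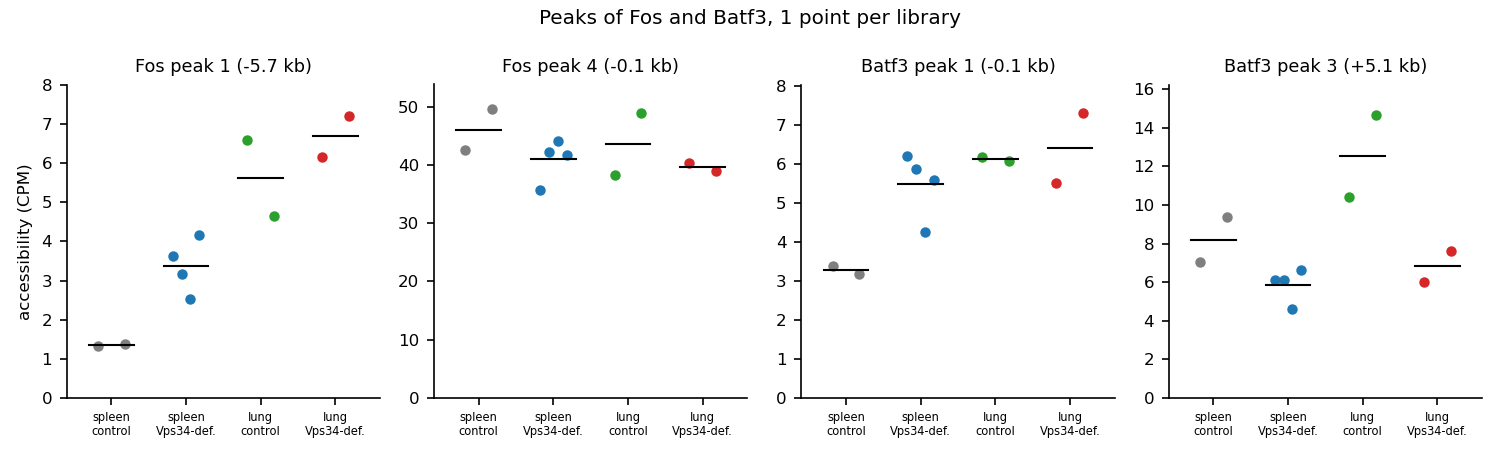
Accessibility (y axis, CPM, from 0) of Fos peaks 1 and 4 and Batf3 peaks 1 and 3 in the 4 groups, with 1 point per library, a black line at the group mean and the distance of the peak's centre from the gene's start in each title. At Fos peak 1 the spleen controls lie at 1.34 and 1.38 CPM, below every other library, and at Batf3 peak 3 the lung controls lie at 10.4 and 14.7 CPM, above every other library.

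Batf3, a BATF protein that needs a Jun partner, had the least open start by the GENCODE annotation, and 2 of its 4 peaks were called. Batf3 peak 3 lies in an intron 4826 bp after the start (chr1:191102673-191103314). It had 7.04 and 9.37 CPM in spleen control, 6.12, 6.12, 4.60 and 6.60 in spleen Vps34-deficient, 10.4 and 14.7 in lung control and 6.01 and 7.62 in lung Vps34-deficient libraries. In both tissues all Vps34-deficient libraries lay below both controls, a separation seen in 22.0% of all peaks in lung and 11.1% in spleen. The log2 fold change for genotype was -0.92 (SE 0.261, adjusted p 0.0381, edgeR) in lung, -0.48 (SE 0.217, adjusted p 0.301) in spleen and -0.70 (SE 0.169, adjusted p 0.00878) averaged, and the lung and averaged values were called. This peak holds 2 AP-1 sites, shown in capitals (chr1:191103008-191103205, plus strand).
Batf3 peak 3: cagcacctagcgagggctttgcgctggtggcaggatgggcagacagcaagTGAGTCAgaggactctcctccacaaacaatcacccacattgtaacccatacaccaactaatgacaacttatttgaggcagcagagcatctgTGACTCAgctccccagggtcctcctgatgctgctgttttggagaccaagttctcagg

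The lung call at Batf3 peak 3 was kept in 13 of 22 alternatives. Leaving out lung control replicate 2, the highest library at this peak, gave a log2 fold change of -0.60 (adjusted p 0.382, edgeR), and leaving out lung Vps34-deficient replicate 1, the lowest in lung, gave -0.68 (adjusted p 0.264). It was also lost without lung Vps34-deficient replicate 2, without either spleen control, with the replicate block (adjusted p 0.0637, or 0.0539 with crossed numbers), and with the lung libraries alone in edgeR (adjusted p 0.137) or DESeq2 (adjusted p 0.239). The averaged call was lost without lung control replicate 2, lung Vps34-deficient replicate 1 or spleen control replicate 2, at -0.56, -0.60 and -0.57. Batf3 is also known as a factor of dendritic cells, so markers of myeloid cells are given beside this result. Of 6 such markers, 3 (Itgam, Spi1 and Cd14) had a peak within 1 kb of their start, and Lyz2, Csf1r and Adgre1 had none. The summed level of the list was 24.0 to 26.4 CPM in lung control and 15.8 to 16.9 CPM in lung Vps34-deficient libraries, and 21.8 to 24.2 and 15.4 to 21.4 CPM in spleen. It was thus lower in Vps34-deficient libraries of both tissues, as Batf3 peak 3 was. In lung the B cell list was lower as well, and the CD8 and NK cell list higher (32.8 to 34.3 CPM, beside 23.1 to 27.6 in control). The part of these lists in the result was not tested.

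The start peak of Batf3 (peak 1, chr1:191097380-191098090) had 3.39 and 3.17 CPM in spleen control, 6.19, 5.87, 4.24 and 5.60 in spleen Vps34-deficient, 6.17 and 6.07 in lung control and 5.52 and 7.30 in lung Vps34-deficient libraries. The spleen controls were below every other library. Lung was called higher in control by 0.97 (SE 0.279, adjusted p 0.0189, edgeR), and genotype in spleen did not pass (0.73, SE 0.243, adjusted p 0.134). The tissue call was lost when any of the 4 control libraries was left out, at log2 fold changes of 0.88 to 0.92, and with the control libraries alone in edgeR (adjusted p 0.0543) or DESeq2 (adjusted p 0.174). The RefSeq start of Batf3 lies in peak 2, which had 5.53 to 8.30 CPM and no call. The sum of the 4 peaks ran from 25.6 to 32.9 CPM and was not called, though within 2 kb of the gene it was called higher in lung control (0.57, adjusted p 0.019, edgeR).

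Of 16 AP-1 partners and related leucine zipper genes, 15 had peaks to test (Mafg had none). The 1 sum called was that of Atf3, whose product dimerizes with Jun and which lies 61.4 kb from Batf3. It was higher in lung than in spleen of control Tregs (log2 fold change 0.51, SE 0.0743, adjusted p 0.00131, edgeR), with 4 of its 9 peaks called higher. In this comparison 7.16% of all genes had sums called higher, and in Vps34-deficient Tregs 8.27%, where edgeR and DESeq2 called 0 of the list. At an unadjusted p under 0.05, 2 sums were higher there and 1 lower, beside 16.5% and 15.7% of all genes. The sum of Atf3 was higher in lung there too, by 0.27 (SE 0.0645, adjusted p 0.00879, edgeR), under the fold threshold. Over the 152 peaks of this list, 14 were called higher and 6 lower in lung control (9.21% and 3.95%, beside 11.8% and 3.53% of all peaks), and 6 and 5 in lung Vps34-deficient Tregs (3.95% and 3.29%, beside 12.5% and 4.72%). For genotype in lung, 5 were called higher (3.29%, beside 1.22%), 3 of them at Bach1, a repressor that pairs with small Maf proteins, and 2 at Bach2, a repressor that restrains effector programs. The 3 called lower (1.97%, beside 3.74%) were 2 of the 9 peaks at Jdp2, a repressive Jun partner, and 1 at Atf3. For genotype in spleen, edgeR called 0 of the 152 in either direction, beside 0.441% and 1.02% of all peaks, and DESeq2 called 1 higher and 0 lower. At an unadjusted p under 0.05, 19 of the 152 were higher and 3 lower, beside 9.06% and 5.25% of all peaks. With both tissues averaged, 13 peaks of the list were called higher in Vps34-deficient Tregs (8.55%, beside 4.45%), and 10 of these were among the 71 peaks at Bach2. Another 4 were called lower (2.63%, beside 4.97%).

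Upstream of AP-1, 19 genes of MAP kinases, their phosphatases, Srf and Elk factors had 143 peaks. The 1 called sum was Map2k1, which encodes the kinase MEK1, higher in lung in Vps34-deficient Tregs by 0.55 (SE 0.105, adjusted p 0.00223, edgeR) from 2 peaks, beside 8.27% of all genes. For genotype in lung, 8 peaks were called higher (5.59%, beside 1.22% of all peaks) and 3 lower (2.10%, beside 3.74%), and 4 of the 8 were at Dusp10, a phosphatase of JNK and p38. The sum of Dusp10 rose by 0.24 (SE 0.0552, adjusted p 0.0256, edgeR), under the fold threshold for a call. Other immediate-early genes and genes known to respond to tissue dissociation, 15 in all, had 80 peaks. Of these, 3 were called higher and 3 lower in lung control Tregs, and 2 and 2 in lung Vps34-deficient Tregs (3.75% and 2.50% in each direction). Of all peaks, 11.8% and 3.53% were called higher and lower in control, and 12.5% and 4.72% in Vps34-deficient Tregs. Socs3, an inhibitor of cytokine signals, had 2 peaks called higher in lung control, and its sum was higher by 0.49 (SE 0.0987, adjusted p 0.00459, edgeR), just under the fold threshold. Klf6 had 2 called lower. For genotype in lung, 1 of the 80 peaks was called higher, at Nr4a1, beside 1.22% of all peaks, and 3 were called lower (3.75%, beside 3.74%), 2 at Egr1 and 1 at Ier3, so both shares were near those of all peaks.

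AP-1 proteins act at their sites across the genome, so peaks that hold TGANTCA in the 300 bp around their centre were described as well. Of the tested peaks, 12582 held the letters and 84392 lacked them. In lung, 8.84% of the peaks with the site and 2.98% of those without were called lower in Vps34-deficient Tregs, and 1.22% and 1.23% were called higher. In spleen 2.56% and 0.796% were called lower. Peaks with the site held 9.92% and 10.4% of the counts in the lung control libraries, 9.33% and 9.28% in the lung Vps34-deficient libraries and 8.98% to 9.38% in the 6 spleen libraries. The lung controls had the greatest shares of the 10 libraries. In lung Vps34-deficient libraries the myeloid and B cell marker lists were also lower, and the CD8 and NK cell list higher. Their part in these shares was not tested. Batf3 peak 3 is among the peaks with the site.

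From 15625 genes above a minimum mean level, those sharing a peak with a member were left out. Of the rest, the genes whose summed accessibility varied most like that of the member over the 10 libraries are listed. For Fosl2 these were Mettl8, Dcaf17 and Dennd4a (Pearson's r of log2 CPM 0.983, 0.971 and 0.969), a member chosen for this after its values were seen. For Jun they were Prkag2, Scfd2 and Slc44a3 (0.973 to 0.967), for Junb Prr3, Aif1 and Prrc2a, and for Fos Fam57b, Emsy and Gmpr2. These are the highest of many correlations over 10 libraries that share groups, and no p is given. Listed genes that share peaks with each other were not removed, so they need not be separate.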

How the data were processed

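Per the labels, 10 ATAC-seq libraries fall into groups of 2, 4, 2 and 2. The methods give the spleen numbers the other way round (4 control and 2 Vps34-deficient), and the labels and column names were followed. With these labels, DESeq2's Wald test called 659 peaks higher and 1137 lower in spleen Vps34-deficient Tregs, the same counts and directions as the study gives. The authors trimmed and aligned paired reads, removed duplicates, called peaks with MACS2 in each sample, kept peaks found in at least 50% of the replicates and merged them. The deposited table gives raw counts of reads in each peak, without normalisation, and both mates of a fragment were counted, so that 91.5% to 96.5% of values were even. The methods name an older assembly, whereas 51.3% of 21951 coding starts lay in a peak on GRCm38 and 2.22% to 2.82% after shifts. Members and gene lists were chosen with earlier results of these data known.

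Counts were filtered with filterByExpr, which left 97109 peaks, scaled with TMM and fitted with edgeR 4.0.16 (R 4.3.3) in 1 quasi-likelihood model of 4 groups, with Benjamini-Hochberg adjustment over all peaks. The same was done for counts summed over the peaks of each of 17628 genes within 10 kb. The scripts were tested on simulated data. The named peaks are the start peak, the strongest peak over 1 kb from every coding start, and each called peak. Alternatives were other scalings, filters, windows and thresholds, DESeq2 1.42.0, halved counts, a replicate block and leaving out each library. Offsets against GC content and a block with crossed numbers were added after seeing the data. Replicate numbers did not pair the libraries. The labels do not say that replicates came from separate mice, so p-values measure the spread between libraries. The depth of 9405823 to 22439699 counts limits peaks near 1 CPM most. Genes most like Batf3 over the libraries are not reported here.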

Additional observations from a re-analysis of the deposited data

Results flagged for a closer look

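In 2 of 29 results examined, 1 of the 4 spleen Vps34-deficient libraries lay far from the others, and chance alone does this in about 1 in 20 groups. At Fosl1 peak 2, an intronic peak, replicate 3 had 2.53 CPM, and the gap to the next library was 0.837 of the range, above the 95% limit of Dixon's test for 4 samples. At Fosl2 peak 1, replicate 1 had 11.5 CPM, lower than the other 3, with a gap of 0.901 of the range. Neither peak was called for genotype, and Fosl2 peak 1 was called for tissue under all 21 alternative fits, which include the one without that library.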

How the results depend on the processing

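No result changed sign and kept a call. The 2 calls of the Fosl2 sum and those of Fosl2 peaks 1 and 2 were kept under every alternative fit that gave a value, at the same thresholds. At an absolute log2 fold change above 1, those of Fosl2 peak 2 and of the sum in Vps34-deficient Tregs are lost. Counts of called members are small, so most that moved went between 0, 1 and 2. For genotype in spleen, the 1 peak called higher became 0 with the replicate block and within 2 kb, and 0 to 1 when a library was left out. For genotype in lung, the 1 called lower became 0 with DESeq2 and library size scaling on the lung libraries, with the lung libraries alone, with the replicate block, with the crossed block and at an absolute log2 fold change above 1, became 2 within 50 kb, and was 0 to 1 without a library. Averaged over both tissues, the 1 called higher became 0 with the replicate block, within 2 kb and at the stricter fold, and the 1 called lower became 0 at the stricter fold and 5 within 50 kb, each 0 to 1 without a library. Lower calls in lung control went from 0 to 1 within 50 kb and to 0 to 2 without a library, and in lung Vps34-deficient Tregs from 0 to 1 with DESeq2 and library size scaling, with library size alone and without the low count filter, to 5 within 50 kb, and to 0 to 1 without a library. The wider window adds peaks; for the others the cause was not tested.

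The replicate block, whose numbers did not pair the libraries (correlations of deviations -0.138 to 0.0577), moved the calls over all peaks from 428 and 994 to 25 and 252 in spleen and from 1188 and 3632 to 462 and 2310 in lung. The deviations of same-numbered lung libraries had a weak negative correlation (-0.138). Crossing the numbers, an alternative chosen after seeing the data, gave 886 and 3077 calls in lung. For single named peaks, 45 values lost a call and 2 gained one, 2279 kept both direction and side of the threshold, and 243 without a call changed sign. With 2 libraries in most groups, the adjusted p rests on a spread shared across groups, and peaks near 1 CPM are held by few fragments.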
